A study of Mus musculus with 2 samples.

Results

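SR proteins, hnRNP proteins and core factors of the spliceosome were taken as a set of 56 genes among the 30905 genes counted in splenic T cells of Prmt5-deficient and control mice. A gene was a member when its symbol began with Srsf, Hnrnp, Tra2, Prpf, Sf3a or Sf3b in the numbered or lettered form of those families, or was Ddx23. Membership thus went by symbol and not by a cut on measured values, but the set was chosen with earlier results of these data known. By role the set held 11 SR proteins, 2 SR-like Tra2 proteins, 7 hnRNPs of the A/B and D type, 5 of the C, R and U type, 8 of the F/H, K, L and M type, 9 SF3a and SF3b subunits of the U2 particle, 6 proteins of the U4/U6.U5 tri-snRNP and 8 other Prpf proteins. The cells were CD3+ spleen cells of C57BL/6 mice, sorted by flow cytometry and profiled by droplet 3′ RNA sequencing (10x Genomics), with 1 library per group. The Prmt5 CKO library came from mice in which a CD4-Cre transgene deletes a floxed Prmt5 gene. The control library is labelled WT in its title, although its genotype field reads CD4-Cre+ PRMT5fl/fl, as does that of the CKO library. Groups were therefore taken from the titles, and the genotype of the control mice, including whether they carry Cre or the floxed alleles, cannot be told from these labels. The design text gives 3 mice per group, cells were not mapped to mice, and the ages of the mice were not given in the sources used here.

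Splicing removes introns in a cycle in which the U1 and U2 particles mark an intron, the U4/U6.U5 tri-snRNP joins, and the complex is then rearranged into its active form. SR proteins mostly bind exons and favour their inclusion, whereas hnRNP proteins often act against them or package the transcript. PRMT5 places symmetric dimethyl marks on arginines of some of the Sm proteins that form the core of these particles, and it also methylates histones and several RNA-binding proteins. The CD4-Cre transgene becomes active in thymocytes that express CD4 and CD8 together, so that it acts in both lineages of conventional T cells but not in B cells.

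With 1 library per group no test between genotypes exists, and a difference of genotype cannot be told apart from one of library handling. Levels are counts of unique molecular identifiers (UMIs) summed over the cells of a class and given per 1000000 UMIs of those cells (CPM). Brackets hold exact 95% intervals, which cover counting error only. A ratio is CKO over control on the log2 scale, and a fixed size of 1.3-fold is used to count genes, among those with at least 200 UMIs in both libraries together. The CKO library held 7896 barcodes with 52387620 UMIs and the control library 7407 with 48273424. After filtering, 7564 and 6618 T cells remained, with medians of 6048 and 6289 UMIs per cell, and 11 barcodes occurred in both libraries. T cell markers summed to 4462 CPM in CKO and 3879 CPM in control T cells. The markers in this sum did not move together, with Lck higher and Cd3e lower in the CKO library (values are given with the B-like cells). The targeted gene served as the check of the labels. Prmt5 stood at 4.87 CPM (4.29 to 5.51, 250 UMIs) in CKO T cells and 15.03 CPM (13.9 to 16.2, 702 UMIs) in control T cells, a log2 ratio of -1.63, and in naive-like CD4 cells at 3.23 against 11.8 CPM.

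In all T cells, 5 of the 54 members with enough UMIs were at least 1.3-fold higher in the CKO library, against 7.19% of all genes, and 0 were that much lower, against 3.0% of all genes. The 5 were Prpf3, Ddx23 and Prpf8 of the tri-snRNP, the SR protein Srsf7 and the hnRNP Hnrnph3. A share of 5 in 54 lies near the background, so the count does not set the members as a whole apart. The median log2 ratio of the members was 0.09, beside 0.05 over all 9690 genes with enough UMIs, and 44 members lay above 0 and 10 below. The share of all genes above 0 was not counted, so the 44 and 10 are not a result about the members. Centred on the median gene, the members' median was 0.04. Srsf12 (84 and 53 UMIs) and Prpf40b (74 and 57 UMIs) were too scarce to count. The pooled UMIs of the 56 members came to 9892 CPM in CKO and 9203 CPM in control cells.

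**Figure D1:**
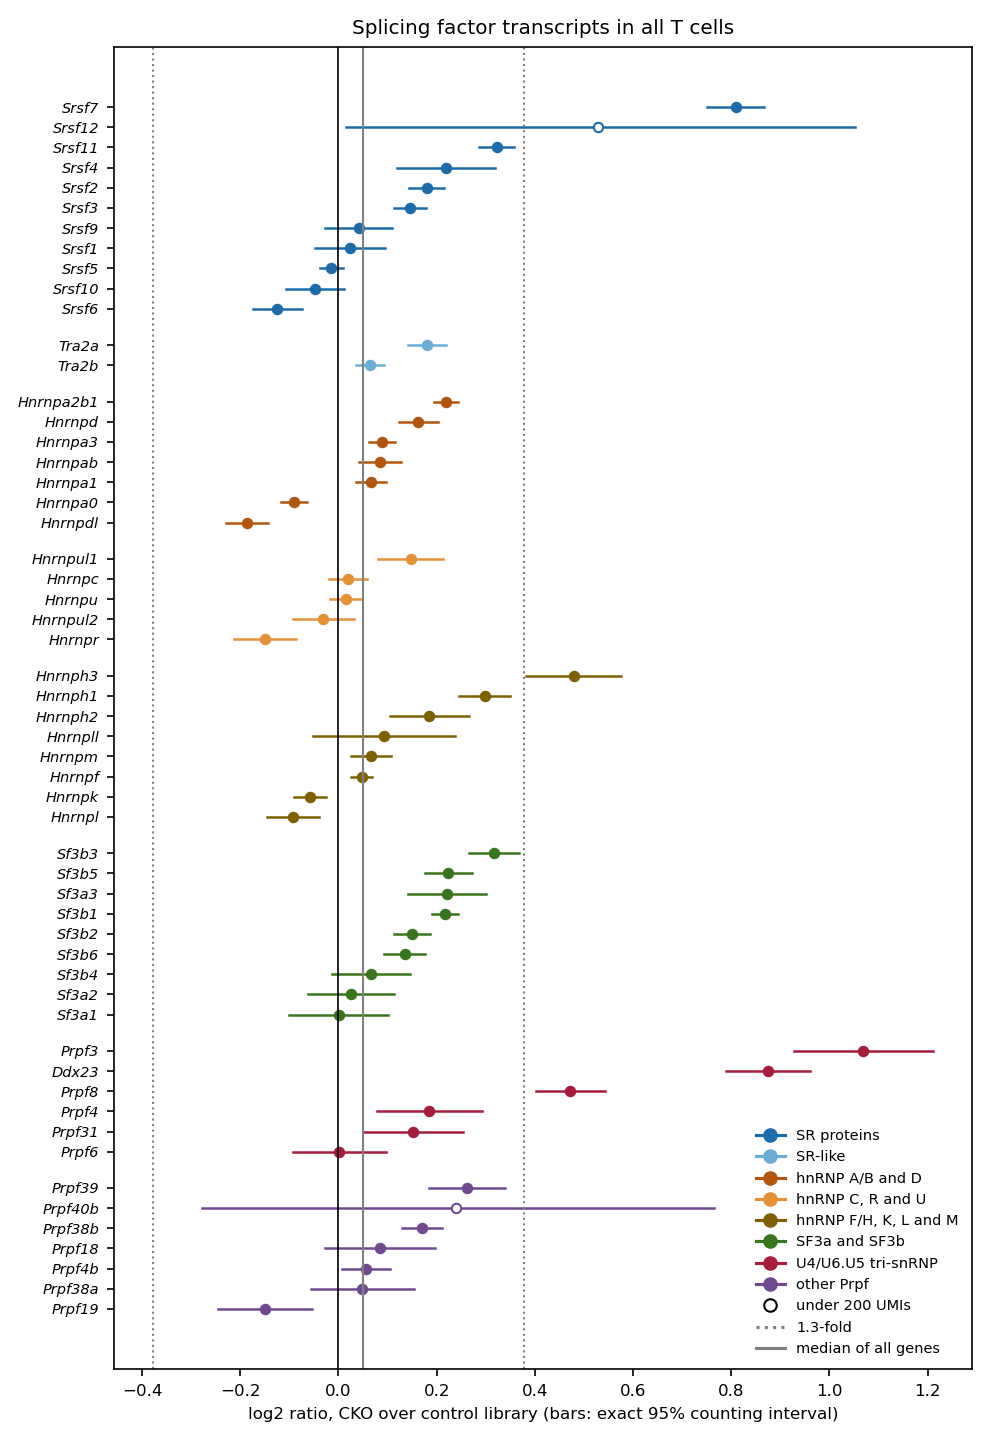
Log2 ratio of CKO over control (x axis) of the members but 1 in all T cells, in blocks by role, with exact 95% counting intervals as bars, dotted lines at 1.3-fold and a grey line at the median of all genes. Open points mark members with under 200 UMIs. Of the drawn members with enough UMIs, Prpf3, Ddx23, Srsf7, Hnrnph3 and Prpf8 stand to the right of the dotted line, and none stands to the left of the other. Srsf12, an open point, also stands to the right.

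The tri-snRNP proteins held 3 of the 5 members past the fold and had the highest median of the 8 role groups, 0.33. Prpf3 encodes a protein that binds the paired U4 and U6 RNAs. It stood at 26.6 CPM (25.2 to 28.0) in CKO and 12.7 CPM (11.7 to 13.7) in control T cells, a log2 ratio of 1.07 (0.93 to 1.21). This was the highest ratio among the members. Ddx23 encodes the RNA helicase of the U5 particle known in yeast as Prp28, which helps to exchange U1 for U6 at the start of the intron. It was found at 65.4 CPM (63.2 to 67.7) and 35.7 CPM (34.0 to 37.4), a ratio of 0.87 (0.79 to 0.96). Prpf8, the large scaffold protein of the catalytic centre, was found at 82.5 CPM (80.0 to 85.0) and 59.4 CPM (57.3 to 61.7), a ratio of 0.47 (0.40 to 0.54). The other members of the particle were closer to equality. Prpf4, a partner of Prpf3, had a ratio of 0.19, Prpf31, which binds the U4 RNA, had 0.15, and Prpf6, which bridges U5 to U4/U6, had 0.00 (-0.09 to 0.10).

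Because 3 genes of the particle stood high together, the sequences before their start sites were set side by side with that of Srsf7, as far as the reference table held them. The letters are from RefSeq (GRCm38.p6), 5′ to 3′ on the gene's strand. They cover 250 bases before the start of Prpf3 (chr3:95855886-95856135, minus strand) and Prpf8 (chr11:75486527-75486776, plus strand), and 248 bases before Srsf7 (chr17:80207308-80207555, minus strand), where 2 bases inside the annotated gene were left off. Capitals mark matches to the motifs named after them.
Prpf3: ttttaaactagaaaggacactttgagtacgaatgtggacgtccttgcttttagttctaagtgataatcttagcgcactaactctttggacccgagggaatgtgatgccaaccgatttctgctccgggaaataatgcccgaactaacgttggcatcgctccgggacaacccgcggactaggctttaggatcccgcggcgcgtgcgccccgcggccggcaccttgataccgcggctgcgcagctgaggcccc
Prpf8: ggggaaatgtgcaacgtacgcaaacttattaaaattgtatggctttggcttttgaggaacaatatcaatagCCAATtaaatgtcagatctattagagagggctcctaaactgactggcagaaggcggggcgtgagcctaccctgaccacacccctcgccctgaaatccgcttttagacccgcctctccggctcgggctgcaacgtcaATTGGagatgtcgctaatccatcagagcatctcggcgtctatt
Srsf7: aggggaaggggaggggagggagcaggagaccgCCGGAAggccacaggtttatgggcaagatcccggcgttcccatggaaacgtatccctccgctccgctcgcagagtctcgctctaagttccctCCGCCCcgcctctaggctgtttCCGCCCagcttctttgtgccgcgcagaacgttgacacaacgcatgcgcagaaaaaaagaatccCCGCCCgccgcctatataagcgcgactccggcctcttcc
Motifs were sought on both strands, and none of them contains another. The Srsf7 stretch held 3 GC boxes (GGGCGG) and 1 ETS core (CCGGAA), the Prpf8 stretch held 2 CCAAT boxes, and the Prpf3 stretch held none of the letters sought. These 3 stretches thus shared no motif of the search.

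Over the 49 members with an entry in the table, GC boxes occurred in 71.4% of the 250-base stretches, beside 32.9% of all 27025 promoters. The ETS core occurred in 44.9% and 12.2%, and CCAAT in 49.0% and 34.5%. The TATA box (TATAAA) occurred in 8.16% and 13.0%, the E-box (CACGTG) in 8.16% and 6.05%, the CRE (TGACGTCA) in 2.04% and 1.62%, and the consensus NRF1 site in 0 of the members' stretches and 0.781% of all. The members' stretches were richer in G and C, with a median of 60.8% against 52.0%, and no comparison at matched base composition was made. The promoters of all genes were taken whether or not the gene is expressed in these cells, whereas nearly all members are. No comparison among expressed genes was made. For these shares the stretches were not trimmed where they lie inside the annotated gene, as that of Hnrnph3 does. Members with no match in the table included Hnrnpll, Ddx23, Prpf18, Hnrnpul2, Sf3b5 and Sf3b4. The motifs were chosen after the values had been seen, and a match is a string of letters, not a bound site.

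The 9 SF3a and SF3b subunits, which help the U2 particle to hold the branch point of the intron, all had ratios at or above 0, and none passed the fold. Sf3b3, the highest, stood at 142 CPM in CKO and 114 CPM in control cells, a ratio of 0.32 (0.27 to 0.37). Sf3b1, the subunit that clamps the branch helix, was found at 495 CPM (489 to 501) and 426 CPM (420 to 432), a ratio of 0.22. Sf3a1, the lowest, stood at 33.0 CPM in each library, and its ratio lay below 0 under both other scalings. The median of the group was 0.15 and stayed above 0 under both other scalings tried, each of which moves every gene's ratio in all T cells by -0.05.

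Among the SR proteins with enough UMIs Srsf7 stood alone past the fold. Srsf7 encodes an SR protein with a zinc knuckle that also takes part in export and in the choice of the 3′ end. It was found at 138 CPM (135 to 142, 7108 UMIs) in CKO T cells and 79.0 CPM (76.5 to 81.6, 3691 UMIs) in control T cells, a ratio of 0.81 (0.75 to 0.87). Srsf11 followed at 288 CPM against 230 CPM, a ratio of 0.32 (0.29 to 0.36). Srsf3, which is close to Srsf7 in sequence and function, had 340 CPM and 308 CPM, a ratio of 0.15 (0.11 to 0.18). Srsf1, the founding SR protein, had 66.3 CPM and 65.2 CPM, a ratio of 0.02 (-0.05 to 0.09). The lowest was Srsf6, with 124 CPM and 135 CPM, a ratio of -0.12 (-0.17 to -0.07). The SR proteins with enough UMIs thus ran from slightly below equality to well above it, with a median of 0.09. The 2 Tra2 proteins, activators of exons rich in purines, had ratios of 0.18 (Tra2a) and 0.06 (Tra2b).

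Most hnRNP proteins lay near equality. In the A/B and D type, Hnrnpa2b1 had 621 CPM against 534 CPM, a ratio of 0.22 (0.20 to 0.24), and Hnrnpa1, a repressor of exon inclusion, 345 CPM against 329 CPM, a ratio of 0.07 (0.04 to 0.10). Hnrnpdl had the lowest ratio of all 54 members, with 166 CPM (163 to 170) in CKO and 189 CPM (185 to 193) in control cells, a ratio of -0.19 (-0.23 to -0.14). Hnrnpa0 was also below 0, at 485 CPM against 517 CPM, a ratio of -0.09. In the C, R and U type the median was 0.02, and it turned below 0 under both other scalings. Hnrnpul1 was the highest there with 0.15 and Hnrnpr the lowest with -0.15 (-0.21 to -0.09). Hnrnpr overlaps Gm27022 on the other strand.

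In the F/H, K, L and M type, Hnrnph3 passed the fold. It encodes the shortest member of the H family, whose proteins bind runs of G. It was found at 42.7 CPM (40.9 to 44.5) and 30.6 CPM (29.1 to 32.3), a ratio of 0.48 (0.38 to 0.58). The gene overlaps Rufy2 on the other strand. Its relatives had lower ratios, 0.30 for Hnrnph1, 0.18 for Hnrnph2 and 0.05 for Hnrnpf. Hnrnpk, which binds runs of C, stood at 311 CPM and 324 CPM, a ratio of -0.06, and Hnrnpl, which binds CA repeats and governs exons of Cd45, at 112 CPM and 119 CPM, a ratio of -0.09. Among the other Prpf proteins, Prpf39 of the U1 particle was the highest with 0.26 (0.18 to 0.34), and Prpf19, the ubiquitin ligase of the complex named after it, was the lowest with 34.7 CPM against 38.5 CPM, a ratio of -0.15 (-0.25 to -0.05).

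By GENCODE vM21 on mm10, Prpf3 lies on chromosome 3 (95830124 to 95855885, minus strand), Ddx23 on chromosome 15 (98645134 to 98662894, minus strand) and Prpf8 on chromosome 11 (75486816 to 75509449, plus strand). Srsf7 lies on chromosome 17 (80200080 to 80207307, minus strand), Hnrnph3 on chromosome 10 (63014664 to 63024217, minus strand) and Hnrnpdl on chromosome 5 (100033577 to 100039664, minus strand). All 56 members had a position and are spread over many chromosomes. Of these, 16 overlap a gene on the other strand and 1 a gene on its own strand. Counting by gene symbol does not tell isoforms apart, so a shift between transcript forms of a member, several of which are known to be spliced to a form that is degraded, was not measured here.

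Other genes of splicing gave the setting for these values. Of 43 other core proteins of the spliceosome with enough UMIs, 3 were past 1.3-fold higher, against 7.19% of all genes, and 0 lower, against 3.0%. Their median was 0.14, beside 0.05 over all genes. The highest was Snrnp200, the U5 helicase that unwinds U4 from U6 and binds Prpf8, with 3593 UMIs in CKO and 2045 in control cells, a ratio of 0.68 (0.60 to 0.76). Smndc1 had 0.54, Txnl4a, a small U5 protein, 0.40 and Cwc15 0.34. The Sm core, of whose proteins SmB, SmD1 and SmD3 carry the marks placed by PRMT5, had 0 of 7 past the fold, all 7 above 0 and a median of 0.13, with Snrpe the highest at 0.19. The genes of the marked proteins had 0.13 (Snrpb), 0.14 (Snrpd1) and 0.12 (Snrpd3).

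Among the 7 kinases that phosphorylate SR proteins, Clk2 was past the fold with 23.2 CPM against 17.3 CPM, a ratio of 0.43, while Clk3 stood at 28.1 CPM against 35.3 CPM, a ratio of -0.33. Srpk1 had 0.28 and Clk1 -0.09. Of 16 SR-related and RS-rich factors, Luc7l was past the fold with 0.41 and 0 were lower. Of 19 other regulators of alternative splicing, Tia1, a protein that binds runs of U behind weak splice sites, was past it with 68.7 CPM against 46.7 CPM, a ratio of 0.56, and 0 were lower. Of 8 genes of the exon junction complex, Magohb was past it with 0.46. Beside 7.19% of all genes higher and 3.0% lower, lists this short are not set apart by a single gene past the fold. The median of the exon junction complex was 0.18, beside 0.05 over all genes. The share of all genes above 0 was not counted.

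The B-like cells in the same libraries gave a comparison in cells where the CD4-Cre transgene is not active. The 72 CKO and 67 control B-like cells held 36 and 11 UMIs of Ddx23, a ratio of 1.31 (0.30 to 2.43), and 74 and 29 UMIs of Srsf7, a ratio of 0.95 (0.31 to 1.62). They held 58 and 34 UMIs of Prpf8, a ratio of 0.36 (-0.27 to 1.02), 13 and 12 UMIs of Prpf3, a ratio of -0.29 (-1.54 to 0.97), and 24 and 24 UMIs of Hnrnph3, a ratio of -0.41 (-1.28 to 0.47). For Ddx23 and Srsf7 the B-like cells therefore differed between the libraries in the same direction as the T cells, within wide intervals. For Prpf3 and Hnrnph3 the point values lay below 0, and the intervals held 0 and ended just under the ratios of all T cells, 1.07 and 0.48. The B-like cells also held T cell transcripts, 400 CPM of Lck in CKO and 156 CPM in control B-like cells, against 1085 and 453 CPM in T cells, and 235 and 158 CPM of Cd3e against 622 and 669 CPM. The part that free RNA, doublets or a difference between the libraries has in these values was not tested.

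The filter on gene number and mitochondrial share removed 2.99% of CKO and 9.38% of control barcodes. In the T cells kept, Malat1, a nuclear RNA, made up 1.93% of T cell UMIs in both, mitochondrially encoded genes 4.37% in CKO and 5.17% in control, ribosomal protein genes 34.3% and 35.5%, and 13 genes of dissociation stress 0.469% and 0.491%. Single classes differed by more, as in memory-like CD4 cells, with Malat1 at 1.81% and 2.32% and stress genes at 0.506% and 0.663%. In memory-like and effector-like CD8 cells joined, ribosomal protein genes made up 31.1% and 37.9%. Taken apart, they made up 36.7% and 38.9% in memory-like CD8 cells, and 24.1% and 23.9% in effector-like CD8 cells. The joined shares thus also reflect the unlike mix of these 2 classes in the libraries. Of the markers of other cells in T cells, B cell markers summed to 19.1 and 13.5 CPM (5 of 6 higher in CKO), NK markers to 41.5 and 32.1 CPM (3 of 5), myeloid markers to 111 and 85.2 CPM (5 of 6, with Adgre1 at 0 in both) and erythroid markers to 10.8 and 1.67 CPM (4 of 4). Proliferation markers summed to 240 and 185 CPM (4 of 4). The part of these in the ratios was not tested. When the T cell classes were weighted as in the control library, the ratios were 1.06 for Prpf3, 0.88 for Ddx23, 0.75 for Srsf7, 0.45 for Hnrnph3 and 0.45 for Prpf8, and 5 members were past the fold. The share of all genes past it under these weights was not computed.

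A split of the T cells by sex-linked transcripts gave a further view, chosen after seeing the data. Cells with UMIs of Y-linked genes and none of Xist numbered 2196 (CKO) and 1653 (control), and cells with Xist alone 3275 and 3191. In the first, 6 of 54 members were at least 1.3-fold higher, against 6.84% of all genes, and 0 lower, against 3.68%. In the second the counts were 5, against 6.7%, and 0, against 3.07%. Prpf3 had a ratio of 1.02 in cells with Y-linked UMIs and 1.08 in cells with Xist UMIs, and Ddx23 had 1.04 and 0.80. Srsf7 had 0.73 and 0.85, Hnrnph3 0.52 and 0.40, and Prpf8 0.40 and 0.44. Hnrnpdl was lower in both, with -0.31 and -0.15.

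By class, naive-like CD4 cells, the most numerous with 3726 CKO and 2672 control cells, had 6 of 54 members past the fold, against 7.51% of all genes, and 0 lower, against 2.96%. Prpf3 stood at 28.0 CPM (25.8 to 30.3) and 12.5 CPM (10.9 to 14.4), a ratio of 1.16. Ddx23 had a ratio of 0.96, Srsf7 0.85, Hnrnph3 0.60, Prpf8 0.52 and Sf3b3 0.41. The lowest were Prpf19, at 29.4 CPM (27.2 to 31.8) against 36.6 CPM (33.7 to 39.7), a ratio of -0.31, and Hnrnpdl, with -0.28 (-0.35 to -0.21). Both lay under the 1.3-fold size.

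The naive-like CD4 cells were of 3 clusters, and the cluster led by Pdlim4 and Ly6c1 held 932 CKO and 38 control cells, with 11 of 48 members higher, against 23.5% of all genes, and 6 lower, against 13.9%. In the cluster led by Igfbp4 and Pdlim4 (1668 and 1213 cells) 8 of 54 members were past the fold, against 7.22% of all genes, and 0 lower, against 2.54%. There Prpf3 had a ratio of 1.36, Ddx23 0.90, Srsf7 0.82, Hnrnph3 0.64 and Prpf8 0.46. In the cluster led by St8sia6 and Tubb2a (1126 and 1421 cells) 5 of 53 were higher, against 5.59%, and 1, Prpf19 with -0.38, was lower, against 2.13%. There the ratios were 0.65 (0.28 to 1.02) for Prpf3, 0.88 for Ddx23, 0.65 for Srsf7, 0.43 for Hnrnph3 and 0.49 for Prpf8. Each of the 5 was past the fold in both clusters that drew many cells from each library. They were picked in all T cells, which include these clusters, and the share of other genes that do the same was not counted. For Prpf3 the interval was 0.98 to 1.74 in the cluster led by Igfbp4 and Pdlim4. It overlapped that of the cluster led by St8sia6 and Tubb2a by little, and the difference between clusters was not tested.

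In naive-like CD8 cells (1343 and 1579 cells) 9 of 54 members were past the fold, against 9.27% of all genes, and 0 lower, against 3.13%. Prpf3 had a ratio of 0.92 (0.63 to 1.21), Ddx23 0.89, Srsf7 0.79 and Prpf8 0.67 (0.52 to 0.82). Srsf11 followed with 304 CPM (293 to 315) against 216 CPM (207 to 224), a ratio of 0.49, then Hnrnph3 and Sf3a3 with 0.44 each, Hnrnph1 with 0.43 and Hnrnpll with 0.40, whose interval reached from just under 0 to 0.80. The lowest was Hnrnpr, with 68.5 CPM against 77.6 CPM, a ratio of -0.18. The count was 5 when ratios were centred on the median gene and 5 when each cell was thinned to 2000 UMIs. The share of all genes was not computed under these settings.

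In Treg-like cells (478 and 527 cells) 3 of 52 members were higher, against 6.28% of all genes, and 2 lower, against 5.75%. Ddx23 stood at 56.8 CPM (49.0 to 65.4) and 31.0 CPM (25.6 to 37.2), a ratio of 0.87, Srsf7 at 120 CPM and 72.8 CPM, a ratio of 0.73, and Hnrnph3 had 0.45 (0.08 to 0.82). The 2 lower members were Srsf6, at 115 CPM (104 to 127) against 154 CPM (142 to 167), a ratio of -0.42, and Hnrnpr, at 84.2 CPM (74.7 to 94.7) against 112 CPM (102 to 124), a ratio of -0.41. Prpf8 stood at 79.2 CPM (265 UMIs) and 75.0 CPM (278 UMIs), a ratio of 0.08, next to 0.67 in naive-like CD8 cells, but the difference between these classes was not tested. The median of the members was 0.02 and turned below 0 under both other scalings. Treg markers summed to 1684 CPM in CKO and 1827 CPM in control Treg-like cells. Markers of γδ cells summed to 73.8 and 11.1 CPM (4 of 5 higher in CKO, with Il17a at 0 in both) and CD8 effector markers to 449 and 208 CPM (5 of 7, with Gzmk at 0 in both), and their part in these ratios was not tested.

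The remaining classes were smaller. In memory-like CD4 cells (177 and 481 cells) 1 of 43 members, Srsf7 with a ratio of 0.54 (0.26 to 0.81), was higher, against 11.1% of all genes, and 0 were lower, against 10.1%. In memory-like and effector-like CD8 cells together (343 and 527 cells) 6 of 50 were higher, against 20.0% of all genes, and 0 were lower, against 4.41%. The higher members included Srsf7 with 0.81, Ddx23 with 0.70, Prpf39 with 0.46, Sf3b6 with 0.42 and Hnrnpul1 with 0.38. Within the class, Hnrnpul1 had 0.19 in memory-like cells and 0.14 in effector-like cells (118 and 29 UMIs), and Sf3b6 0.19 and 0.46, so that Hnrnpul1 was past the fold in neither and Sf3b6 in effector-like cells alone. In this class the other scalings move every ratio by -0.18 and -0.14, and the median of the members went from 0.11 to -0.07 and -0.03. Its effector-like cells numbered 156 (CKO) and 44 (control), and in the memory-like cells alone (187 and 483) 5 of 46 members were higher, against 10.8% of all genes, and 0 lower, against 4.42%. The unnamed cluster with Myb, Tnfrsf9 and Sox4 among its leading genes had 4 of 51 higher, against 4.31%, and 0 lower, against 4.31%. Interferon-responding-like cells had 5 of 39 higher, against 9.32%, and 0 lower, against 2.93%. Proliferating-like cells had 1 of 45 higher, Prpf8 with 0.41 (0.11 to 0.72), against 7.13%, and 0 lower, against 4.75%. With naive-like and memory-like cells joined, 6 of 54 members were higher in CD4 cells, against 5.31%, and 0 lower, against 4.67%, and 7 of 54 were higher in CD8 cells with the effector-like cells included, against 10.1%, and 0 lower, against 2.5%. Most of these counts thus rest on few genes, and none is backed by a replicate.

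Across the 11 T cell classes and clusters, Prpf3, Ddx23, Hnrnph3 and Prpf39 had a ratio above 0 in all 11. This was the case for 2.27% of the 7770 genes with UMIs in every class of both libraries and at least 200 UMIs in all T cells. Another 9 members did in 10 of 11, namely Srsf7, Prpf8, Prpf38b, Tra2a, Hnrnpa2b1, Hnrnpul1, Sf3b5, Srsf2 and Sf3b6, so that 13 of 54 members reached 10, beside 8.2% of those genes. For Srsf7 the exception was γδ-like cells, with 75 and 16 UMIs, and for Prpf8 it was effector-like CD8 cells, with 84 and 26 UMIs. Within a class these counts need only a UMI in each library, not 200 UMIs in both together. Prpf3 had 200 UMIs in 2 classes, Hnrnph3 in 4 and Prpf39 in 7. In γδ-like cells Prpf3 had 12 and 1 UMIs, so single ratios among the 11 can rest on very few counts. Prmt5 had 7 and 2 UMIs in γδ-like cells, too few to tell whether the gene is deleted there. Trdc, a marker of γδ cells, was found in 91.6% of γδ-like cells and 48.6% of the unnamed cluster led by Fcer1g. Both of these are also part of all T cells. Ddx23 had 200 UMIs in 6 classes and was past the fold in all 6. Its ratios there ran from 0.75 in the unnamed cluster with Myb, Tnfrsf9 and Sox4 to 0.96 in naive-like CD4 cells. Srsf7 had 200 UMIs in 9 classes and was past the fold in 8 of them. The lowest of its ratios there was in proliferating-like cells, with 301 CPM (280 to 323) against 240 CPM (217 to 266), a ratio of 0.32. Hnrnpdl and Hnrnpa0 had ratios below 0 in all 11, as did 1.22% of those genes. The classes share 2 libraries, so these counts are no replicates of the genotype.

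**Figure D2:**
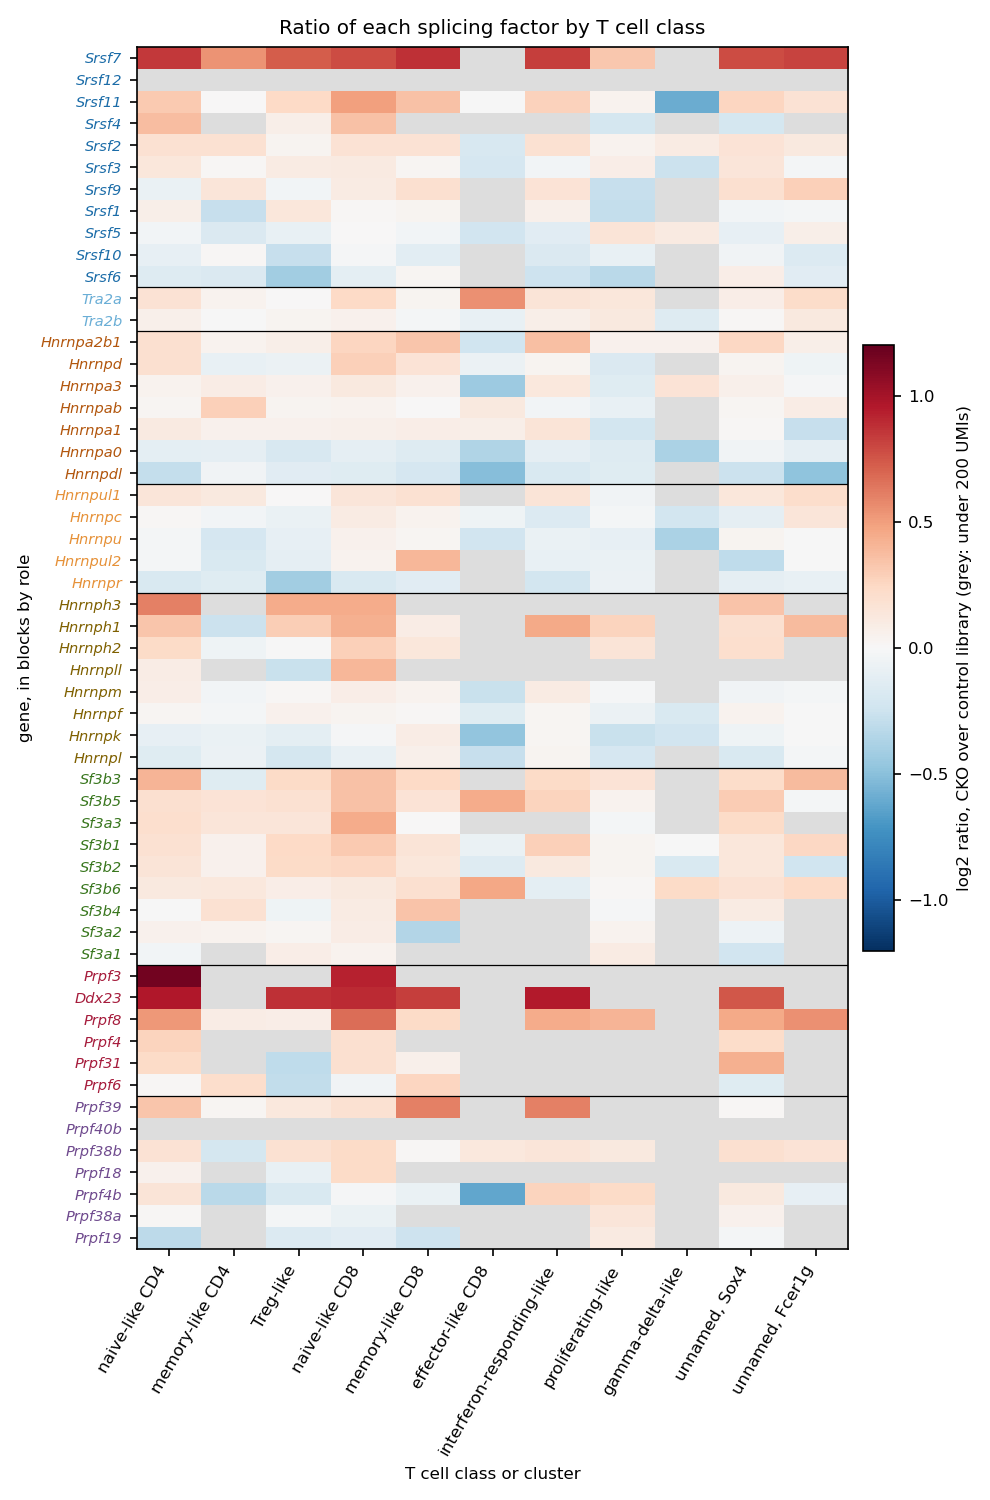
Log2 ratio of CKO over control (colour) of the members but 1 (rows, in blocks by role) in each T cell class or cluster (columns), with grey where the libraries together held under 200 UMIs. Srsf7 and Ddx23 are red in each column where they are coloured, and Hnrnpdl and Hnrnpa0 are on the blue side in theirs.

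**Figure D3:**
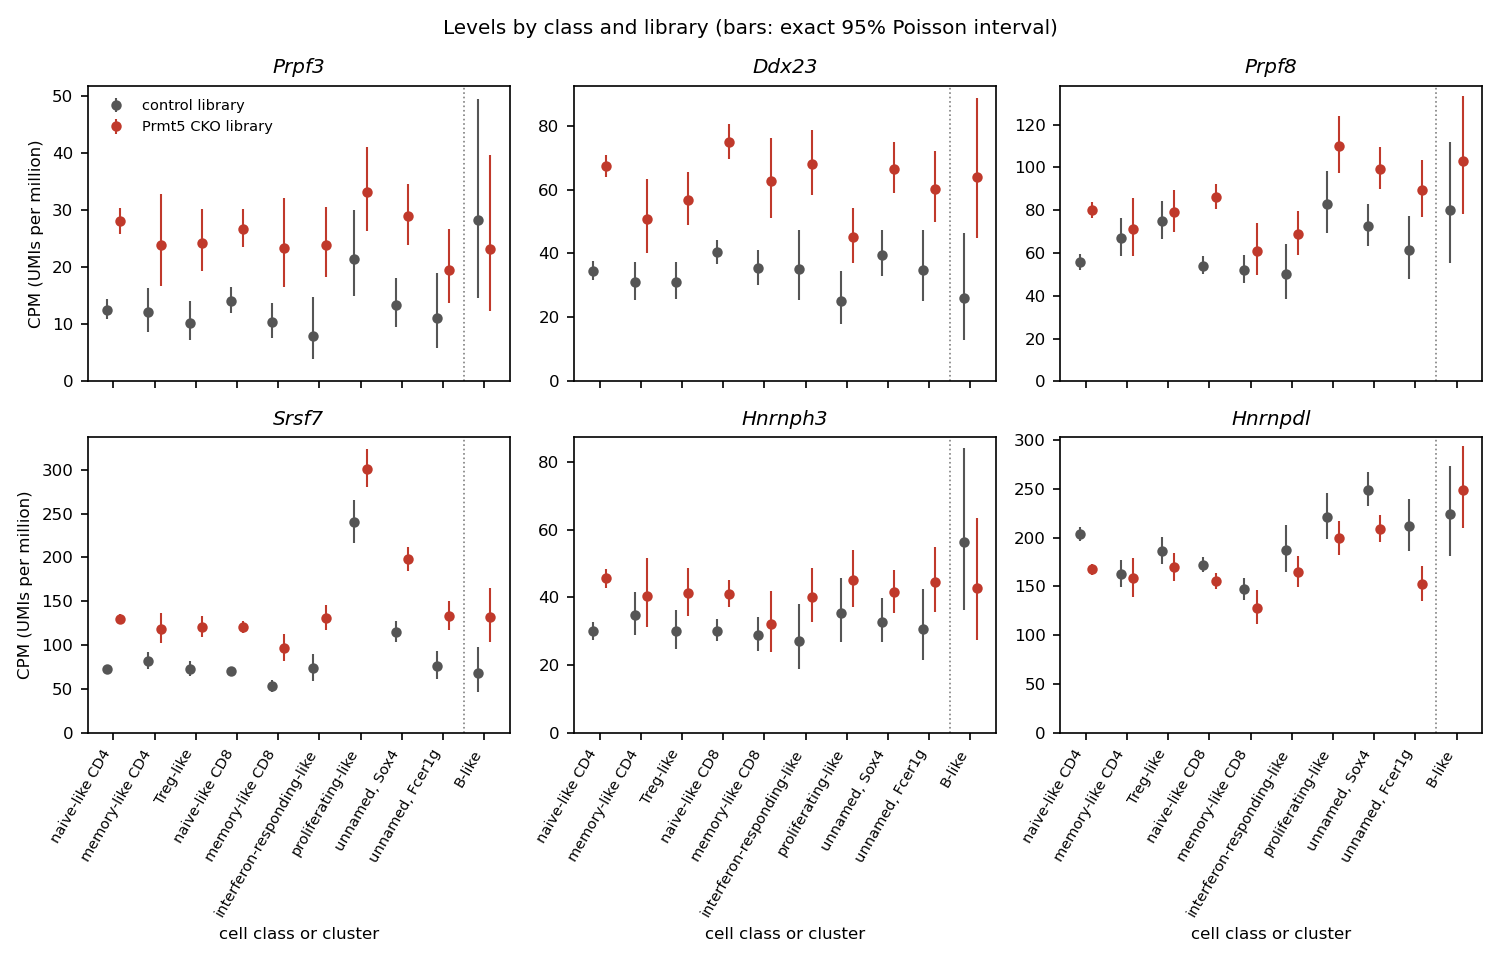
Level in CPM (y axis) of 6 members in each class of the control (grey) and CKO (red) library, with exact 95% Poisson intervals as bars. Right of the dotted line are B-like cells. Ddx23 is higher in the CKO library in each class shown, B-like cells included, and Hnrnpdl is lower in each T cell class shown.

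Within each library the members also differed between T cell classes, which share their library and are described without a test. Proliferating-like cells, led by Pclaf, Birc5 and Mki67, held 38 of 54 members at least 1.3-fold above naive-like CD4 cells in the control library, against 37.8% of all genes, and 3 that far below, against 21.4%. In the CKO library the counts were 32 and 4, against 34.4% and 19.7% of all genes. The members' medians were 0.56 in control and 0.47 in CKO, beside 0.17 and 0.14 over all genes. Proliferating-like cells held more UMIs, with medians of 19560 UMIs per cell in control and 15740 in CKO, against 5676 and 5611 in naive-like CD4 cells.

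The SR proteins led, with medians of 0.95 and 0.70. Srsf7 stood at 240 CPM in proliferating-like and 72.3 CPM in naive-like CD4 control cells, a log2 ratio of 1.73 (1.56 to 1.90), and at 301 and 130 CPM in CKO cells, a ratio of 1.21 (1.09 to 1.33). Srsf4 had 1.51 in control and 0.94 in CKO cells, and Srsf3 1.17 and 1.11. Srsf5 went the other way, with -0.96 (-1.09 to -0.84) and -0.77 (-0.87 to -0.68), as did Tra2a with -0.39 and -0.43, and Ddx23 with -0.46 (-0.96 to 0.01) and -0.58 (-0.87 to -0.30). Ddx23 thus belonged to the members higher in the CKO library within classes while being lower in proliferating-like than in naive-like CD4 cells of both libraries. The interval of the Srsf7 ratio in the control library lay above that in the CKO library, which restates its smaller ratio between the libraries in proliferating-like cells.

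**Figure D4:**
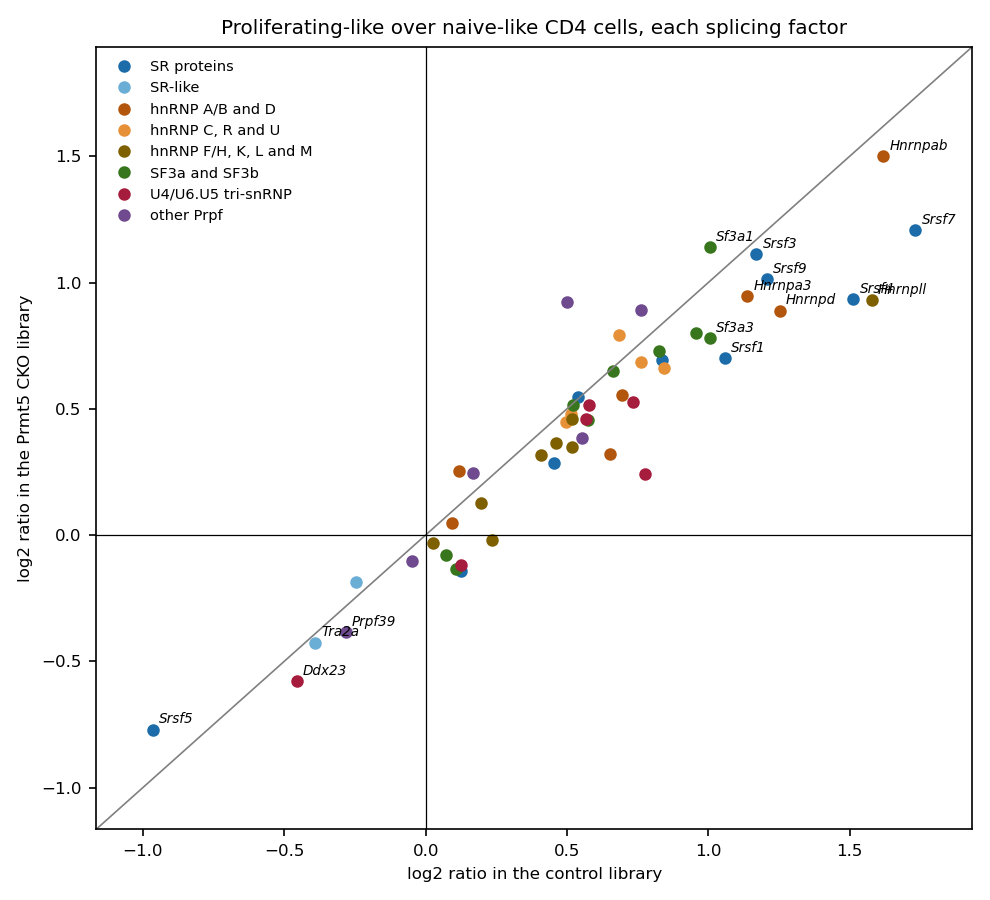
Log2 ratio of proliferating-like over naive-like CD4 cells for the members with enough UMIs but 1 in the control library (x axis) and in the CKO library (y axis), coloured by role, with the line of equality in grey. Srsf7 lies at the upper right and below the line, and Srsf5 lies at the lower left.

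The unnamed cluster led by Myb, Cldn10 and Itm2a, with Tnfrsf9 and Sox4 also among its leading genes, held 566 CKO and 394 control cells. Set against naive-like CD4 cells in the same way, it had 19 of 54 members higher in the control and 16 in the CKO library, against 27.5% and 23.3% of all genes. In either library 0 were lower, against 6.1% and 8.25%. The members' median was 0.30 in both libraries. Hnrnpab had 0.78 in control and 0.77 in CKO cells, Sf3a1 0.86 and 0.66, Hnrnpu 0.56 and 0.62, and Srsf7 0.67 and 0.60. Memory-like CD8 cells had 0 members higher in either library, against 8.88% of all genes in control and 11.7% in CKO, and 5 and 9 lower, against 14.9% and 20.1%. The members' medians there were -0.15 in control and -0.20 in CKO cells. The members' transcripts took the largest part of the UMIs in proliferating-like cells, 13010 CPM in the control and 12810 CPM in the CKO library for all 56 members, and the smallest in memory-like CD8 cells, 7841 and 8364 CPM.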

How the data were processed

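Single-cell 3′ RNA libraries (10x Genomics V3.1) of 2 samples, 1 Prmt5 CKO and 1 control, were used. The deposited matrices hold counts of UMIs per gene and barcode without normalization, made with Cell Ranger 3.1.0, as the file headers show. CASAVA 1.8, Seurat 2.3.4 and mm10 are named, without their roles, in the submitters' processing notes. Members and gene lists were chosen with earlier results of these data known.

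Barcodes needed 500 genes and a mitochondrial share below 10%. Scrublet (expected rate 6%) called 0 doublets in either library, so it has not worked and doublets remain. Counts were scaled to 10000 per cell and log-transformed, and both libraries were clustered together in scanpy 1.11.5 on 2000 variable genes, without receptor, immunoglobulin, mitochondrial and ribosomal genes, using 30 components, 15 neighbours, Leiden resolution 1 and seed 1. No member was among the variable genes. Clusters were named from markers, with thresholds set after the clusters were seen, and those with conflicting leading genes stayed unnamed.

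UMIs were summed per class and library. Poisson intervals for CPM and conditional binomial intervals for ratios are exact at 95%, and their code was checked on simulated data. The UMIs behind each value set its precision. In all T cells, each of naive-like CD4, naive-like CD8 and Treg-like cells, the 6 highest and 6 lowest members were named, with Srsf1, Srsf3, Hnrnpa1, Hnrnpa2b1, Hnrnpk, Sf3b1, Prpf8, Ddx23, the extremes of each role group and up to 4 genes per other list. Further names (relatives within a family, smaller classes, comparisons between classes) were chosen after their values were seen. Alternatives covered cell filters, doublet scores, scaling, clustering, thinning, class weights, floor and fold. Protein sequences of the members were planned and not analysed here. Values of 1 member are not reported singly here, though it is part of the counts and medians.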

Additional observations from a re-analysis of the deposited data

How the results depend on the processing

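No result between the libraries has a replicate, so no leave-one-out value exists, and the alternatives show how values move with the processing only. No paired analysis was possible because each group is 1 library. In all T cells the ratios of the 5 leading members kept their sign over 10 alternatives, from 1.02 to 1.10 for Prpf3, 0.80 to 1.04 for Ddx23, 0.69 to 0.85 for Srsf7, 0.40 to 0.52 for Hnrnph3 and 0.40 to 0.47 for Prpf8. The count of 5 higher moved by more than 1.5 times only with the fold. Depth limits Prpf3, which had 200 UMIs only in the naive-like classes. Over all alternatives, 224 counts and medians stayed near the reported value and 29 moved. For the counts that follow, the share over all genes was not computed under the same setting. They show how the members moved, with no background beside them. At a fold of 1.5, the members higher were 3 in all T cells, 3 in joined CD4, 4 in naive-like CD8, 2 in memory-like or effector-like CD8 and 0 in memory-like CD4 cells, and 0 were lower in Treg-like cells. In memory-like CD4 cells the higher count was 2 without the highest doublet scores, 3 when clustered without the member genes, 0 when thinned, 4 at a floor of 50 UMIs and 0 at 500, and the lower count was 2 with stricter cell filters, 1 when scaled without mitochondrial and ribosomal protein genes and 1 when thinned. Stricter filters put 1 member lower in naive-like CD4 cells. In naive-like CD8 cells 5 were higher when centred on the median gene and 5 when thinned, with 1 lower when thinned, as in joined CD8 cells (1 lower). In memory-like or effector-like CD8 cells, 2 were higher and 3 lower when scaled without those genes, 2 and 1 when centred, 2 and 4 at resolution 0.5, where the median was -0.12, and 3 were higher when thinned. In Treg-like cells 0 were higher when thinned, where Ddx23 (0.96 from 86 UMIs), Srsf7 (0.61 from 182) and Hnrnph3 (0.84 from 66) came under the floor, and 1 at a floor of 500 UMIs. The cause of the other moves was not tested, except that a higher floor or a higher fold cannot raise a count, by construction. Thinning leaves fewer members at the floor, yet some counts of lower members rose with it. No member was a variable gene, so clustering without them only altered the choice of the others (1996 of 2000 shared), yet it left 87.9% of cells in their class and took memory-like CD4 cells from 177 and 481 to 279 and 584, and Srsf1 in Treg-like cells from 0.14 to 0.55. Of the values of single members, 561 stayed near the reported one and 85 moved. None past the fold changed sign, whereas the small ratios of Hnrnpa1, Prpf6, Sf3a1 and Srsf1 in all T cells did so under some alternatives.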
